A study of Mus musculus with 36 samples.

Results

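The SLC25 family of mitochondrial carriers was followed in mouse kidney through the probe sets whose only gene symbol is Slc25a and a number, 73 probe sets of 40 genes among the 45141 probe sets of the array. Of all probe sets, 28898 carried 1 gene symbol and together named 17097 genes. Among the 40 carrier genes, 20 were measured by 1 probe set and 20 by several, at most 5. No filter on low signal was applied, and 64 of the 73 probe sets, covering 37 of the genes, had a mean log2 signal above the median probe set of the array (3.82).

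Most SLC25 proteins lie in the inner mitochondrial membrane and exchange metabolites, nucleotides, cofactors and ions between the cytosol and the matrix. Of the members measured here, Slc25a17 is a carrier of peroxisomes and Slc25a46 a protein of the outer mitochondrial membrane. The carnitine-acylcarnitine carrier brings in long-chain fatty acids, the aspartate-glutamate carriers move reducing equivalents, glutamate and ornithine carriers serve nitrogen metabolism, and the adenine nucleotide and phosphate carriers supply ATP synthase. The tubules of the kidney, the proximal tubule above all, are densely filled with mitochondria and oxidise fatty acids and glutamine.

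Total RNA of kidneys of male C57BL/6 mice aged 10 to 12 weeks was hybridised to Affymetrix HT MG-430 PM arrays, with 1 mouse on each of 36 arrays. The study asked how the kidney answers short diets that differ in whether they protect it from ischaemia-reperfusion injury, and each diet group was set against its own freely fed control group. One cohort held mice fasted for 3 days (n = 4) and mice on the standard SDS chow (n = 5). The other cohort held mice on 30% dietary restriction (30%DR) for 2 weeks (n = 5) with SDS chow controls of their own (n = 3), and mice on a protein-free (n = 5), carbohydrate-free (CHO-free, n = 5) or fat-free diet (n = 4) for 3 days with mice on the purified Control diet (n = 5), which has casein as its protein where the chow has crude protein. All mice had first eaten SDS chow, and the protein-free, CHO-free and fat-free groups share the same 5 Control mice. Restricted mice received their ration once a day in the late afternoon, so that the amount of food and the time of the meal cannot be told apart. The SDS controls were assigned to the cohorts by the letters of their animal numbers.

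The deposited values are log2 signals made by robust multichip average (RMA) in each cohort separately, so levels were not compared across the cohorts. Markers of proximal tubule cells, 8 of 10 listed genes measured, averaged between 11.2 and 11.6 on the log2 scale on every array, and 2 of the 8, Slc5a2 and Miox, were called lower after fasting. Between arrays of the same cohort the correlation over all probe sets ranged from 0.974 to 0.997. The 3′ probe set of Gapdh exceeded its 5′ probe set, a measure of RNA integrity on these arrays, by 0.98, 1.63, 1.72, 2.45 and 2.45 log2 units in CHO-free mice, against 0.65, 0.70, 0.86, 0.95 and 0.96 in Control mice (exact permutation test, two-sided, p = 0.00794, adjusted p = 0.0476 over 6 comparisons, the smallest p this design allows being 0.00794). The groups did not overlap, and CHO-free mice TS34 and TS35 had the highest values of all 36 arrays. The Control mean of 0.82 also lay below that of fat-free mice (1.27, adjusted p = 0.0714 in the same test). Protein-free mice (1.34, adjusted p = 0.167) and the SDS controls of the 30%DR mice (1.27, adjusted p = 0.107) averaged above it too. The mean of 4 measured adipocyte markers of 7 listed lay between 6.20 and 6.74 in 30%DR mice and between 6.76 and 7.67 in their SDS controls (exact permutation test, two-sided, p = 0.0179, adjusted p = 0.0536, the smallest p being 0.0179). The mean of 10 leukocyte markers lay between 5.60 and 5.78 in fasted mice and between 6.05 and 6.37 in their SDS controls. Of the 10, 5 were called lower, beside 2.68% of all probe sets. In CHO-free mice the leukocyte mean lay between 5.41 and 5.54, against 5.62 to 6.06 in Control mice, with 2 called lower (2.25%). Markers of other nephron segments did not overlap with the controls in some comparisons. The mean of 4 distal tubule markers lay between 9.0 and 9.09 in fasted mice and between 9.31 and 9.59 in SDS controls, with Pvalb and Calb1 called lower, and between 8.70 and 9.28 in 30%DR mice and 9.40 and 9.45 in their controls, with Pvalb called lower. Pvalb was also called lower on the CHO-free diet, where the distal means overlapped. The mean of 5 thick limb markers lay between 11.20 and 11.25 in fasted mice and between 11.26 and 11.40 in SDS controls. In CHO-free mice the means of 5 of 6 listed intercalated cell markers and of 4 principal cell markers lay at 8.34 to 8.57 and 7.76 to 7.97, against 7.68 to 8.30 and 7.36 to 7.68 in Control mice, with Slc4a1 and Aqp6 of the intercalated list called higher. The part of these cell types in the carrier values was not tested, and in RNA of whole kidney fewer cells of a type and less RNA per cell cannot be told apart.

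A probe set was called where its adjusted p in limma, taken over the whole array, was under 0.05 and it changed 1.5-fold or more. Fasting raised the carriers for acylcarnitines (Slc25a20), ATP-Mg and phosphate (Slc25a25) and glutamate (Slc25a22) and the carrier Slc25a34, and lowered the ornithine carrier Slc25a15. The CHO-free diet also raised Slc25a25 and Slc25a34 and lowered Slc25a15, and it moved 4 further carriers. Of these CHO-free calls only those of Slc25a25 and Slc25a34 passed with the Gapdh difference as a covariate. That covariate was largely confounded with the diet. Restriction lowered Slc25a25, and the protein-free diet raised Slc25a34 and lowered Slc25a45. In all, 10 of the 40 genes were called against a control in at least 1 comparison and 30 in none. The matching share over all genes of the array was not computed, so this count cannot be called high or low.

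After fasting 6 of the 73 carrier probe sets were called, 5 higher and 1 lower, beside 5.31% of the whole array (2.63% up and 2.68% down). The CHO-free diet gave 8, 4 higher and 4 lower (3.60% of all probe sets, 1.35% higher and 2.25% lower), the protein-free diet 2, 1 in each direction (0.738%, 0.450% higher and 0.288% lower), and 30%DR 1, which was lower (0.919%, 0.450% lower). On the fat-free diet no carrier was called (0% of all probe sets), and 3 of 73 had an unadjusted p under 0.05 in limma, as had 4.63% of all probe sets. Control mice against the SDS controls of the 30%DR mice gave no called carrier either (0.0465% of all probe sets), while 3 had an unadjusted p under 0.05 (6.34%). The median log2 fold change of the 73 probe sets was 0.05 after fasting, -0.03 on 30%DR, -0.03 on the protein-free diet, 0.03 on the CHO-free diet and -0.01 on the fat-free diet, beside 0.003, 0.0003, 0.01, 0.03 and 0.01 over all probe sets. The medians of the family thus lay within a few hundredths of a log2 unit of those of all probe sets. The shares of all probe sets called, given here for each diet, also belong beside the called counts of the marker and pathway lists.

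**Figure D1:**
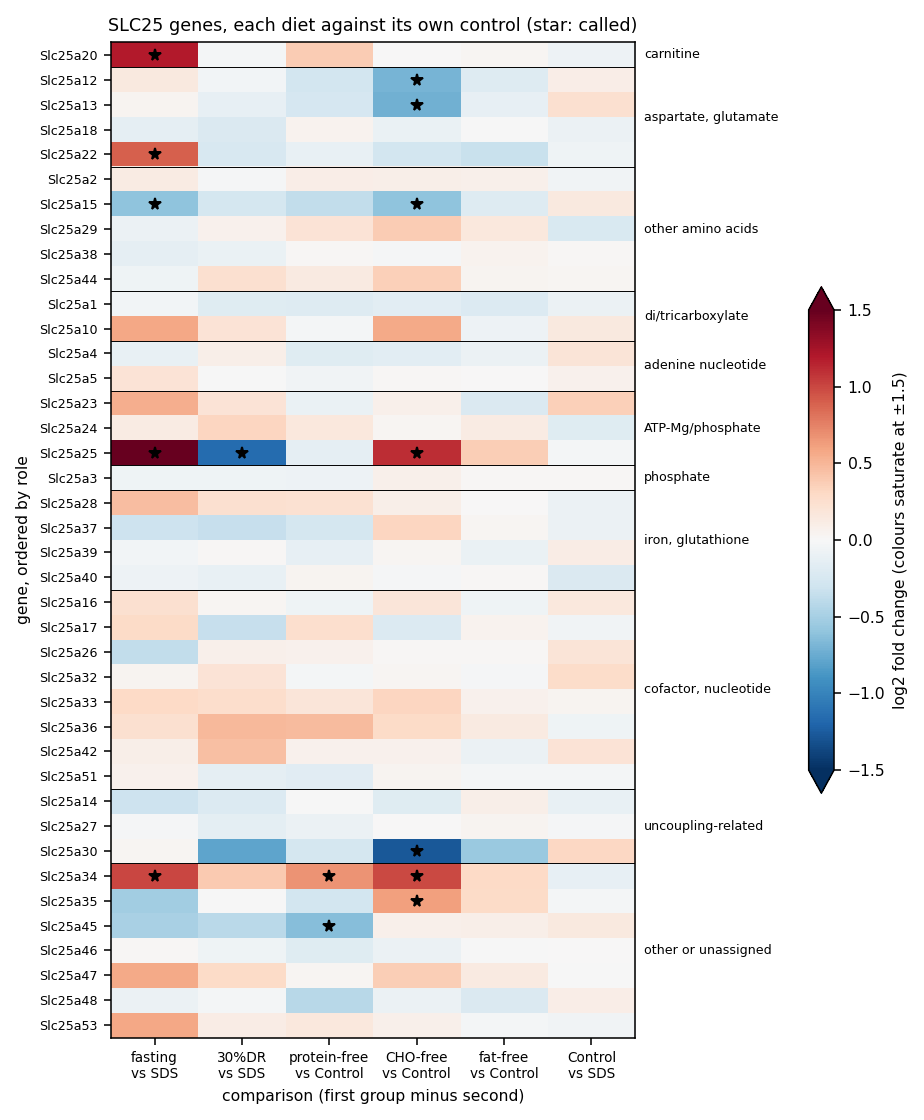
Log2 fold changes of the 40 SLC25 genes (vertical axis, ordered by role) in 6 comparisons (horizontal axis, first group minus second), 1 probe set per gene, with a star where that probe set was called. Stars stand in 5 genes after fasting, in 1 gene on 30%DR, in 2 genes on the protein-free diet and in 7 genes on the CHO-free diet, and in none in the last 2 columns.

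Without the fold change minimum, 29 carrier probe sets passed the adjusted p after fasting, 20 higher and 9 lower, where 19.6% of all probe sets did (10.1% higher and 9.54% lower). The same count was 12 on the CHO-free diet (10.4% of all probe sets), 4 on the protein-free diet (1.69%), 3 on 30%DR (1.49%) and 0 on the fat-free diet (0%). The fasting count moved with 1 mouse, since without fasted mouse K343 11 carrier probe sets were called in place of 6, 10 of them higher. The share of all probe sets called in that fit is not given, so the rise cannot be read as particular to the carriers. Among the carriers that passed only the adjusted p after fasting, the dim Slc25a53 (1 of its 2 probe sets) and Slc25a47 were 0.58 ± 0.08 and 0.57 ± 0.12 higher, Slc25a33 and Slc25a16 0.29 ± 0.09 and 0.24 ± 0.07 higher, and Slc25a14 was at -0.30 ± 0.07. Slc25a2, Slc25a18 and Slc25a27 had no probe set above the median signal.

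Slc25a25 encodes a calcium-regulated carrier that exchanges ATP-Mg for phosphate and so sets the pool of adenine nucleotides in the matrix. Its difference after fasting was the largest of any carrier against a control. Its probe set 1424735_PM_at read 7.62, 8.20, 8.45 and 8.64 in fasted mice, against 5.55, 5.56, 5.56, 5.93 and 6.02 in SDS controls. All fasted mice stood above all controls, and the difference was 2.51 ± 0.19 log2 units (SE), or 5.69-fold (adjusted p = 5.74e-06). On the CHO-free diet the values were 6.94, 6.99, 7.39, 7.76 and 7.77, against 5.82, 5.98, 6.13, 6.32 and 7.09 in Control mice. Only Control mouse TS28 reached into the CHO-free range, and the diet was higher by 1.10 ± 0.23 (2.15-fold, adjusted p = 0.00248). In 30%DR mice the order turned round, with 4.81, 5.16, 5.18, 5.21 and 5.37 in restricted mice, against 5.86, 6.05 and 6.99 in their SDS controls. All restricted mice stood below all controls, by -1.16 ± 0.26 log2 units (2.23-fold lower, adjusted p = 0.0200). That call rested on 1 control, since without SDS mouse TS56 the difference was -0.81 with an adjusted p of 0.258. With the adipocyte marker mean of each array as a covariate it was -1.25 (adjusted p = 0.0424).

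Neither of the other diets moved Slc25a25 past the threshold. Protein-free mice read between 5.84 and 6.48 (log2 fold change -0.14 ± 0.23 against Control) and fat-free mice 6.41, 6.44, 6.47 and 7.25 (0.37 ± 0.24, adjusted p = 0.998). A second probe set of the gene, 1447856_PM_x_at, whose _x suffix marks probes that may also bind other transcripts, was dimmer and changed less. It was called on the CHO-free diet, at 0.89 ± 0.18 (adjusted p = 0.00257), with 5.48 to 6.93 in CHO-free mice and 4.84 to 5.39 in Control mice, and stood at 0.85 ± 0.29 after fasting (adjusted p = 0.0634) and at -0.37 ± 0.21 on 30%DR (adjusted p = 0.519). Among the relatives with the same kind of substrate, Slc25a23 was 0.55 ± 0.09 higher after fasting with an adjusted p of 0.000963, which is less than 1.5-fold, and Slc25a24 was called in no comparison.

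**Figure D2:**
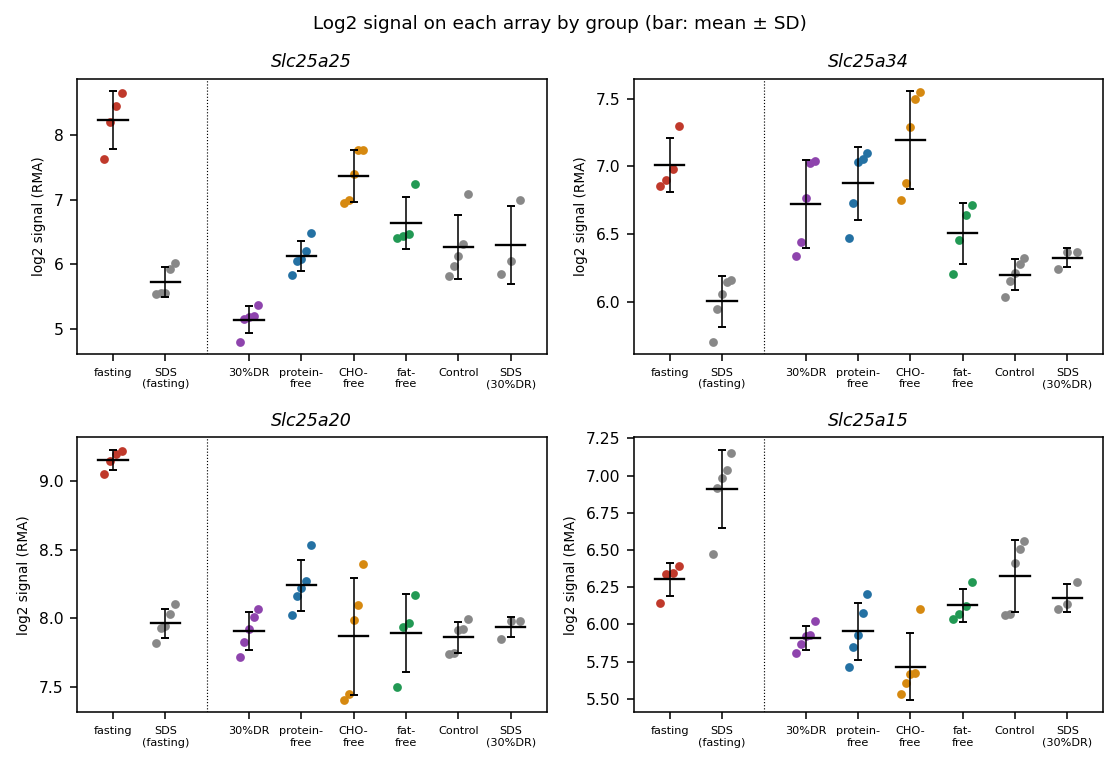
Log2 RMA signal (vertical axis) of each mouse (points) by group (horizontal axis), with the mean and SD as bars, for Slc25a25, Slc25a34, Slc25a20 and Slc25a15, the dotted line parting the 2 separately normalised cohorts. Slc25a25 lies between 7.62 and 8.64 in fasted mice and between 4.81 and 5.37 in 30%DR mice, and Slc25a20 stands apart from its controls in fasted mice.

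Slc25a20, the carnitine-acylcarnitine carrier, lets long-chain acylcarnitines into the matrix, where beta oxidation takes place. Its probe set 1423109_PM_s_at read 9.05, 9.14, 9.19 and 9.22 in fasted mice, against 7.82, 7.93, 7.94, 8.03 and 8.10 in SDS controls. The gap of 1.19 ± 0.07 log2 units (2.28-fold, adjusted p = 9.89e-07) was wide beside the spread of either group, whose SDs were 0.07 and 0.11. The second probe set, 1423108_PM_at, gave 1.18 ± 0.08 (adjusted p = 2.41e-06), so that both readings of the gene moved alike. On the protein-free diet the 2 probe sets stood at 0.38 ± 0.14 and 0.52 ± 0.17, with adjusted p of 0.225 and 0.140, on the CHO-free diet at 0.01 ± 0.14 and 0.36 ± 0.17, and on 30%DR at -0.03 ± 0.17 and 0.10 ± 0.20, none of which passed.

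The enzymes on either side of this carrier were read from a list of 20 genes of carnitine transfer and beta oxidation, of which 18 were measured. After fasting 6 of the 18 were called higher and none lower, beside 2.63% and 2.68% of all probe sets. Among the 6 were Acaa2, the last enzyme of the cycle (1.22 ± 0.11), and Eci1, an enoyl-CoA isomerase (1.17 ± 0.08). Cpt2, which takes the acyl group off carnitine behind Slc25a20, was also among them (0.77 ± 0.06). The list's median log2 fold change was 0.39, beside 0.003 over all probe sets. On the CHO-free diet 1 of the 18 was higher (1.35% of all probe sets), Cpt1b, a carnitine palmitoyltransferase of the outer membrane (0.73 ± 0.12, adjusted p = 0.000241). On the protein-free diet none was called (0.738%), with 8 at an unadjusted p under 0.05 in limma, as had 12.9% of all probe sets. The list's median on that diet was 0.16, beside 0.01 over all probe sets. Ppara, the nuclear receptor that controls many of these genes, was higher after fasting (1.0 ± 0.08, adjusted p = 1.21e-05), the 1 called gene of 8 measured regulators of mitochondria.

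Slc25a34 is a carrier without a firmly established substrate, related in sequence to Slc25a35. It was higher in 3 comparisons. It read 6.85, 6.90, 6.98 and 7.30 in fasted mice, against 5.71, 5.94, 6.05, 6.15 and 6.16 in SDS controls. CHO-free mice read 6.75, 6.88, 7.29, 7.50 and 7.55 and protein-free mice 6.47, 6.73, 7.03, 7.05 and 7.10, against 6.03, 6.15, 6.21, 6.28 and 6.32 in Control mice. In each of the 3 diets every mouse lay above every control. The differences were 1.0 ± 0.11 after fasting (2.01-fold, adjusted p = 0.0001), 0.99 ± 0.16 on the CHO-free diet (adjusted p = 0.000192) and 0.68 ± 0.16 on the protein-free diet (adjusted p = 0.0199). The protein-free call was lost without any 1 of the protein-free mice TS49, TS50 and TS51 (0.62 to 0.64, adjusted p from 0.0567 to 0.0662) and with the Gapdh difference as a covariate (0.52, adjusted p = 0.0772). In 30%DR mice the values ran from 6.34 to 7.04, against 6.24 to 6.37 in their controls (0.40 ± 0.18, adjusted p = 0.352), with an overlap, and in fat-free mice from 6.20 to 6.72 (0.30 ± 0.16, adjusted p = 0.998).

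Slc25a15 carries ornithine and citrulline across the inner membrane and is needed for the urea cycle in liver. It was lower after fasting and on the CHO-free diet. Fasted mice read 6.14, 6.34, 6.34 and 6.39 and their SDS controls 6.47, 6.92, 6.98, 7.04 and 7.15 (-0.61 ± 0.12, 1.52-fold lower, adjusted p = 0.00424), with all fasted mice below all controls. CHO-free mice read 5.53, 5.61, 5.66, 5.68 and 6.10 and Control mice 6.07, 6.07, 6.41, 6.51 and 6.56 (-0.61 ± 0.11, 1.52-fold lower, adjusted p = 0.000847), with mouse TS32 inside the Control range. Both differences lie close to the fold change minimum. Leaving out fasting-cohort mouse K339, K347 or K348 brought the first to between -0.58 and -0.55, and leaving out mouse TS27, TS29, TS30, TS31 or TS34 brought the second to between -0.58 and -0.55, each time with an adjusted p under 0.05 but less than 1.5-fold. The brighter probe set of the gene, 1420967_PM_at, was lower by less in both comparisons, at -0.20 ± 0.05 after fasting (adjusted p = 0.0229) and -0.32 ± 0.09 on the CHO-free diet (adjusted p = 0.0190).

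For the 3 genes each called in the same direction in more than 1 comparison, the 250 bases before an annotated start are shown, from RefSeq on mouse build GRCm38.p6, 5′ to 3′ on the gene's strand. Of these genes Slc25a25 and Slc25a34 were higher and Slc25a15 lower after fasting and on the CHO-free diet. Capitals mark matches to 1 of 8 motifs looked for on both strands. The windows lie at chr2:32424067-32424316 (minus strand) for Slc25a25, chr4:141623835-141624084 (minus strand) for Slc25a34 and chr8:22398278-22398527 (minus strand) for Slc25a15.
Slc25a25: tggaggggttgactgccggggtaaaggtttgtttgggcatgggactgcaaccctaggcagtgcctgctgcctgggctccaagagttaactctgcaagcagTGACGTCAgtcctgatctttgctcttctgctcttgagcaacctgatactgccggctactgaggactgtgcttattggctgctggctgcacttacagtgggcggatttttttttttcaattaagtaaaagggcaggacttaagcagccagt
Slc25a34: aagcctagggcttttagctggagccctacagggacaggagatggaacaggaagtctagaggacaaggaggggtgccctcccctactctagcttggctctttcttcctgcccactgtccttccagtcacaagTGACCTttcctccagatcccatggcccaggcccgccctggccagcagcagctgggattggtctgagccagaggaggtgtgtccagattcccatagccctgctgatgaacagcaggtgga
Slc25a15: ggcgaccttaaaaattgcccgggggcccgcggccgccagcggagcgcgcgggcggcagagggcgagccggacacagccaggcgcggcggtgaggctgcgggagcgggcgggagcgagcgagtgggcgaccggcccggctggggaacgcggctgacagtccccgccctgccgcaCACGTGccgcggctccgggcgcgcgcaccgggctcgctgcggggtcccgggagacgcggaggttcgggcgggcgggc

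The Slc25a25 window holds the cAMP response element TGACGTCA, which begins 150 bases before the start and is found in 1.55% of 32851 windows of the same length. The 2 other annotated starts of Slc25a25 have no match in their windows, and which transcript the probe sets read was not determined. The Slc25a34 window holds the nuclear receptor half-site AGGTCA on the other strand, printed as TGACCT, 119 bases before the start (14% of windows). The Slc25a15 window holds the E-box CACGTG 77 bases before the start (6.02% of windows), and its second annotated start has no match. Of the 40 member genes, 31 had a window, 40 windows in all. In those 40 windows TGACGTCA stood in 2, CACGTG in 7, AGGTCA in 4 and TATAAA in 1 (12.4% of all windows). None of the 40 held the direct repeat of that half-site with 1 base between (0.0335%), TCAAGGTCA (0.387%), both of which contain AGGTCA, nor the FOXO motif GTAAACA (3.17%) or TGATGCAA (0.791%). A match is a run of letters and not evidence of binding.

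Glutamate and aspartate enter and leave mitochondria through Slc25a12 and Slc25a13, the aspartate-glutamate carriers of the malate-aspartate shuttle, and through the glutamate carriers Slc25a18 and Slc25a22. Slc25a22 read 6.28, 6.28, 6.32 and 6.40 in fasted mice, against 5.00, 5.32, 5.52, 5.61 and 5.68 in SDS controls. The fasted mice lay close together and above every control (0.89 ± 0.12, 1.86-fold, adjusted p = 0.000365). On the 4 other diets its differences ran the other way without passing, at -0.25 ± 0.15 on 30%DR, -0.11 ± 0.13 on the protein-free diet, -0.27 ± 0.13 on the CHO-free diet and -0.34 ± 0.14 on the fat-free diet.

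Slc25a12 and Slc25a13 were called on the CHO-free diet, both lower, Slc25a12 on 1 of its 2 probe sets. Slc25a12 (1428440_PM_at) read 6.87, 7.19, 7.74, 7.84 and 8.23 in CHO-free mice, against 8.07, 8.20, 8.32, 8.33 and 8.42 in Control mice (-0.70 ± 0.19, adjusted p = 0.0174). Its dimmer probe set 1436440_PM_at stood at 0.07 ± 0.13 (adjusted p = 0.806), so that the fall rests on 1 probe set. Slc25a13 read 7.50, 7.79, 8.55, 8.76 and 9.18 in CHO-free mice, against 8.89, 9.03, 9.14, 9.15 and 9.16 in Control mice (-0.72 ± 0.22, adjusted p = 0.0365). In both genes the lowest readings came from mice TS34 and TS35, the arrays with the largest Gapdh difference, and mouse TS32, with the smallest Gapdh difference of the diet, lay within or above the Control range. Without TS34 and TS35 the differences were -0.34 (adjusted p = 0.368) and -0.24 (adjusted p = 0.599). Leaving out 1 of the pair alone ended the Slc25a12 call (-0.60 to -0.52), and leaving out TS34, TS35 or Control mouse TS27, TS28 or TS29 ended that of Slc25a13 (-0.70 to -0.50, adjusted p from 0.0675 to 0.15). After fasting Slc25a13 differed by 0.04 ± 0.06 and Slc25a12 by 0.14 ± 0.07 on 1428440_PM_at (adjusted p = 0.205) and by 0.39 ± 0.11 on the dimmer probe set (adjusted p = 0.0315, less than 1.5-fold). Slc25a18 (mean log2 signal 3.04) was called nowhere.

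**Figure D3:**
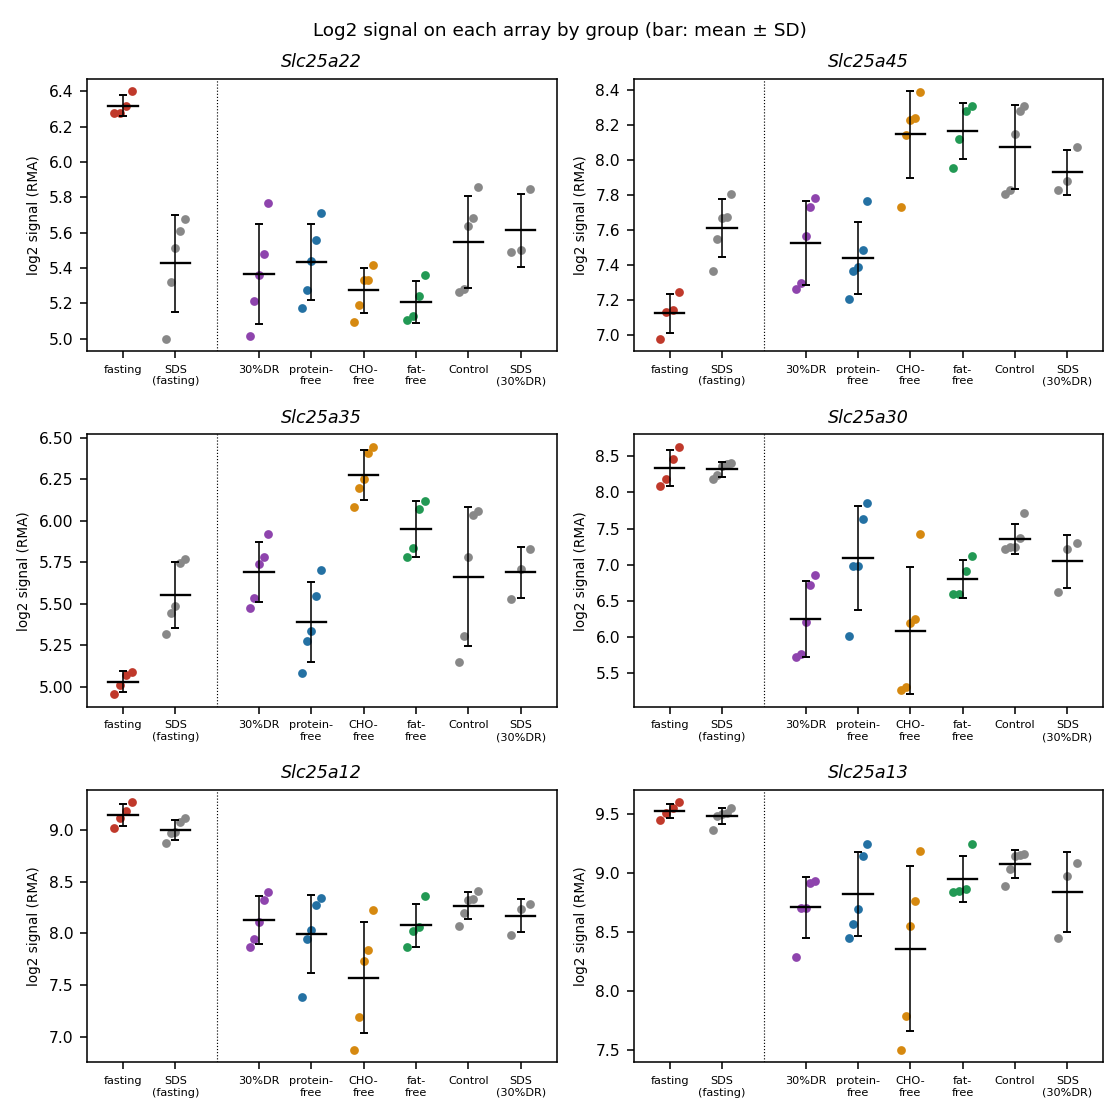
Log2 RMA signal (vertical axis) of each mouse (points) by group (horizontal axis), with the mean and SD as bars, for 6 carriers called against a control on 1 diet. In Slc25a30, Slc25a12 and Slc25a13 the 2 lowest CHO-free points are mice TS34 and TS35, while the Slc25a22 values of fasted mice lie between 6.28 and 6.40.

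The enzymes that supply these carriers were read from 13 measured genes of glutamine, ornithine and urea metabolism out of 16 listed. After fasting 4 were higher and 1 lower, beside 2.63% and 2.68% of all probe sets. Arg2, the mitochondrial arginase that makes ornithine, was higher by 2.18 ± 0.15, Glud1, which deaminates glutamate in the matrix, by 1.13 ± 0.06, and Ass1, argininosuccinate synthase, was lower at -0.90 ± 0.10. On the CHO-free diet 2 were higher and 1 lower, beside 1.35% and 2.25% of all probe sets. They were Glud1 at 1.43 ± 0.09, Arg2 at 0.81 ± 0.24 and Ass1 at -0.75 ± 0.13. On the protein-free diet Pck1, the cytosolic enzyme of gluconeogenesis, was higher (0.80 ± 0.10). Of 6 measured redox shuttle enzymes, Gpd1, the cytosolic glycerol-3-phosphate dehydrogenase, was higher after fasting (0.84 ± 0.07) and Gpd2, its mitochondrial partner, was lower (-0.74 ± 0.07). The list medians were 0.03 after fasting and 0.13 on the CHO-free diet for nitrogen metabolism, and 0.10 after fasting for the shuttle, beside 0.003 and 0.03 over all probe sets.

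The dicarboxylate carrier Slc25a10, which exchanges malate or succinate for phosphate, was not called against a control. It was higher after fasting with an adjusted p under 0.05 on both probe sets, at 0.58 ± 0.08 (adjusted p = 0.000467) and 0.54 ± 0.11 (adjusted p = 0.00486), just under 1.5-fold. Its probe set 1416954_PM_at read 9.67, 9.70, 9.84 and 10.03 in fasted mice, against 9.13, 9.15, 9.25, 9.31 and 9.32 in SDS controls, with no overlap, and 9.82, 10.04, 10.21, 10.47 and 10.49 in CHO-free mice, against 9.39, 9.58, 9.61, 9.75 and 9.87 in Control mice (0.57 ± 0.14, adjusted p = 0.0115). The second probe set did not move that way on the CHO-free diet, with 6.29 to 7.12 in CHO-free mice and 6.80 to 7.07 in Control mice. The citrate carrier Slc25a1, the way out for citrate in fatty acid synthesis, differed by -0.04 ± 0.06 after fasting. Of 9 measured genes of citrate use and lipogenesis, Fasn, fatty acid synthase, was lower after fasting (-1.18 ± 0.13), and Acacb, the acetyl-CoA carboxylase at the outer mitochondrial membrane, was higher after fasting (0.95 ± 0.11) and on the CHO-free diet (0.67 ± 0.20).

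The carriers that serve ATP synthase changed little. Slc25a5, the adenine nucleotide translocase of most tissues, was between 0.21 and 0.23 log2 units higher after fasting on its 4 probe sets, all with an adjusted p under 0.05, all of the _x kind and all well under 1.5-fold. The brightest of them averaged 12.98 ± 0.03 in fasted mice and 12.77 ± 0.04 in SDS controls (SD, n = 4 and 5). Slc25a4, the translocase of heart and muscle, was called in no comparison. For Slc25a3, the phosphate carrier, the lowest p came on 30%DR from a dim probe set (0.38 ± 0.14, adjusted p = 0.207). None of 35 measured subunits of oxidative phosphorylation was called against a control in any comparison, with 6 at an unadjusted p under 0.05 in limma after fasting, 11 on the protein-free diet and 11 on the CHO-free diet, where 30.2%, 12.9% and 24.4% of all probe sets were. None of 10 measured genes for the import of carrier proteins was called either, with 6, 4 and 6 at an unadjusted p under 0.05 on the same diets. The medians of these 10 were -0.14, -0.22 and -0.25, beside 0.003, 0.01 and 0.03 over all probe sets.

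Among the iron and glutathione carriers no gene was called against a control. Slc25a28, mitoferrin 2, was 0.47 ± 0.08 higher after fasting (adjusted p = 0.00179, less than 1.5-fold). Slc25a37, mitoferrin 1, which feeds iron to heme synthesis in red cell precursors, was lower after fasting on 2 of its 3 probe sets with an adjusted p under 0.05, at -0.31 ± 0.07 and -0.44 ± 0.12. Both are of the _x kind, and the third, 1417750_PM_a_at, stood at 0.25 ± 0.09 (adjusted p = 0.0954), so that the probe sets differed in direction and the change of the gene is uncertain. The mean of the 3 measured of 5 listed erythroid markers lay between 8.06 and 8.29 in fasted mice and between 8.55 and 9.21 in SDS controls, and 2 of the 3, Alas2 and Hba-a1, were called lower, as they were on the protein-free diet. In protein-free mice the marker mean lay between 7.72 and 7.99, against 8.46 to 8.75 in Control mice. The part of red cells in the Slc25a37 values was not tested. Of 12 measured genes of heme and iron-sulfur synthesis, Alas2 (-1.01 ± 0.22) and Uros (-1.15 ± 0.09), both heme enzymes, were lower after fasting, and Alas2 was lower on the protein-free diet (-1.21 ± 0.22).

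The carriers of cofactors and nucleotides gave no call against a control, but 2 of them passed the adjusted p in several diets by less than 1.5-fold. Slc25a36, a pyrimidine nucleotide carrier, was higher on its brighter probe set by 0.49 ± 0.10 on 30%DR (adjusted p = 0.00754), 0.47 ± 0.08 on the protein-free diet (adjusted p = 0.00210), 0.29 ± 0.08 on the CHO-free diet (adjusted p = 0.0279) and 0.24 ± 0.07 after fasting (adjusted p = 0.0394), while its second probe set passed the adjusted p on none of these diets. That probe set stood at 0.24 ± 0.18 on 30%DR, 0.59 ± 0.16 on the protein-free diet (adjusted p = 0.0532, all 5 mice above the Control mice), 0.13 ± 0.16 on the CHO-free diet and -0.05 ± 0.08 after fasting. Slc25a51, the carrier of NAD+, was lower on its probe set 1454712_PM_at by -0.42 ± 0.09 on 30%DR (adjusted p = 0.0117), -0.31 ± 0.08 on the protein-free diet (adjusted p = 0.0336) and -0.30 ± 0.07 after fasting (adjusted p = 0.00783). After fasting another probe set of Slc25a51, 1427425_PM_at, was higher (0.36 ± 0.06, adjusted p = 0.00138), so that the probe sets of that gene disagreed in direction and its change is uncertain. The brightest, 1433816_PM_at, stood at -0.14, -0.17 and 0.06 on the same diets. Slc25a26, the S-adenosylmethionine carrier, was lower after fasting by -0.37 ± 0.07 (adjusted p = 0.00418, less than 1.5-fold) on its brightest probe set, with the others at -0.13 and 0.19.

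Slc25a30 encodes a kidney mitochondrial carrier related to the uncoupling proteins. It had the largest fall of the family on the CHO-free diet, where probe set 1420835_PM_at read 5.26, 5.30, 6.19, 6.25 and 7.43, against 7.22, 7.24, 7.25, 7.37 and 7.72 in Control mice (-1.27 ± 0.33, 2.42-fold lower, adjusted p = 0.0129). The 2 lowest values were again those of TS34 and TS35 and mouse TS32 lay among the Control mice. Without TS34 the call was lost, as without TS35 (-1.08 and -1.07, adjusted p of 0.0551 and 0.0553). The brighter probe set 1420836_PM_at was lower by -0.54 ± 0.15 (adjusted p = 0.0188, less than 1.5-fold). Another bright probe set, 1450018_PM_s_at, stood at -0.13 ± 0.11 (adjusted p = 0.515), and the 2 dim ones at -0.10 and -0.02. After fasting the difference on 1420835_PM_at was 0.02 ± 0.11. On 30%DR the values were 5.71, 5.76, 6.20, 6.72 and 6.85, against 6.62, 7.21 and 7.30 in SDS controls (-0.79 ± 0.38, adjusted p = 0.387).

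Slc25a45 and Slc25a35, carriers whose transported substrates were long unknown, each moved on 1 diet. Slc25a45 read 7.21, 7.36, 7.39, 7.48 and 7.76 in protein-free mice, against 7.81, 7.83, 8.15, 8.28 and 8.31 in Control mice. No values overlapped (-0.63 ± 0.13, 1.55-fold lower, adjusted p = 0.00868), and the call fell under the fold change minimum without mouse TS26, TS28 or TS54 (-0.58 to -0.57, adjusted p from 0.0262 to 0.0359). It was also lower after fasting, at 6.98 to 7.24 in fasted mice and 7.37 to 7.81 in SDS controls (-0.49 ± 0.09, adjusted p = 0.00261, less than 1.5-fold). Slc25a35 read 6.08, 6.20, 6.25, 6.40 and 6.44 in CHO-free mice, against 5.15, 5.30, 5.78, 6.03 and 6.06 in Control mice (0.61 ± 0.15, 1.53-fold, adjusted p = 0.00841), where every CHO-free mouse stood above every control by a narrow margin. Without mouse TS29, TS30, TS31 or TS35 it was 0.48 to 0.58 with an adjusted p from 0.0230 to 0.0346, under 1.5-fold. Of 13 other settings, 6 kept this call and 7 lost it. Those that lost it included median and quantile normalisation, array weights and the Gapdh and adipocyte covariates. After fasting Slc25a35 went the other way, with 4.95 to 5.09 in fasted mice and 5.31 to 5.77 in SDS controls (-0.52 ± 0.09, adjusted p = 0.00247, less than 1.5-fold).

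On the CHO-free diet the 8 calls depended on how the RNA integrity of the arrays was treated. With the Gapdh difference of each array as a covariate 2 carrier probe sets were called, Slc25a25 (1.44, adjusted p = 0.00265) and Slc25a34 (0.68, adjusted p = 0.0352). Under that covariate the 3 lowered genes Slc25a30, Slc25a12 and Slc25a13 stood at -0.16, -0.06 and 0.01, with adjusted p of 0.848, 0.915 and 0.995, and Slc25a15 at -0.45 (adjusted p = 0.0888). Without TS34 and TS35, 4 probe sets were called, both of Slc25a25 (1.22 and 0.91), Slc25a34 (0.84) and Slc25a35 (0.63). Leaving out TS34 or TS35 alone gave 4 and leaving out Control mouse TS29 gave 5. Since the Gapdh difference did not overlap between CHO-free and Control mice, diet and integrity are largely confounded in the covariate fit. Fasted mice and their controls differed in the Gapdh measure by 0.05, and with the covariate 5 of the 6 fasting calls passed, while Slc25a15 stood at -0.58 and under 1.5-fold.

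**Figure D4:**
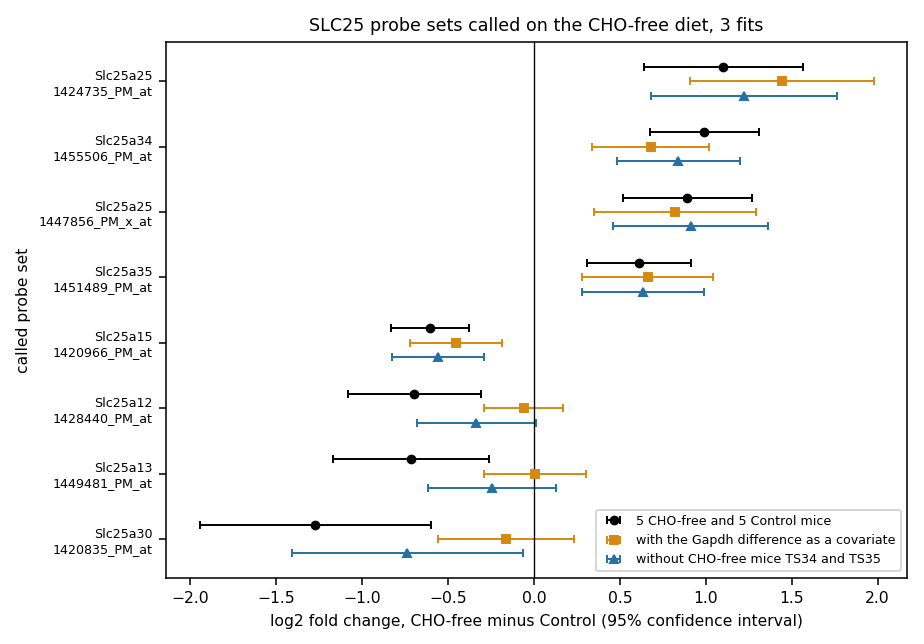
Log2 fold changes of the 8 called probe sets, CHO-free minus Control (horizontal axis, bars are 95% confidence intervals), in 3 fits drawn one under the other for each probe set (vertical axis). Slc25a25 and Slc25a34 stay above 0 in all 3 fits, while Slc25a12, Slc25a13 and Slc25a30 lie at -0.70, -0.72 and -1.27 in the fit of all mice and at -0.06, 0.01 and -0.16 with the covariate.

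Whether the diets differed from each other was tested directly. Protein-free against CHO-free mice gave 7 called carrier probe sets, 1 higher and 6 lower (2.44% of all probe sets, 1.34% higher and 1.10% lower), with Slc25a25 at -1.24 ± 0.23 and -0.75 ± 0.18, Slc25a35 at -0.89 ± 0.15, Slc25a45 at -0.70 ± 0.13, Slc25a10 at -0.59 ± 0.14, Slc25a37 at -0.59 ± 0.17 and Slc25a30 on its brighter probe set at 0.59 ± 0.15. Slc25a10, Slc25a30 and Slc25a37 were called on their brightest probe set alone. In Slc25a25 and Slc25a35 no protein-free value reached a CHO-free one. The erythroid marker mean, between 7.72 and 7.99 in protein-free mice and between 8.64 and 8.97 in CHO-free mice, moved with Slc25a37, and its part was not tested. That mean includes Slc4a1, which is also on the intercalated list and was called higher on the CHO-free diet. The median log2 fold change of the erythroid markers, CHO-free minus Control, was -0.23. With the Gapdh covariate 3 of the comparison's probe sets were called. Without mouse TS52, TS54 or TS34 the count was 4 and without TS31 it was 3, where Slc25a25 kept its first probe set and its second stood at -0.53. The Slc25a30 and Slc25a37 calls were each lost without any 1 of TS50, TS52, TS54, TS31, TS34 and TS35, and that of Slc25a10 without TS52, TS54, TS31 or TS34.

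Protein-free against fat-free mice gave 1 called carrier (0.241% of all probe sets, 0.0975% lower), Slc25a45, at -0.73 ± 0.14 (adjusted p = 0.0128), with 7.21 to 7.76 in protein-free mice and 7.96, 8.12, 8.28 and 8.31 in fat-free mice. It fell out without fat-free mouse TS38 or TS41 (-0.69 to -0.68, adjusted p from 0.0502 to 0.0761), and without TS37 2 carriers were called. CHO-free against fat-free mice gave 3 higher and none lower (1.25% of all probe sets, 0.627% higher). They were Slc25a25 on its second probe set (0.78 ± 0.19), Slc25a34 (0.69 ± 0.16) and Slc25a10 on its brighter probe set alone (0.64 ± 0.15). None of these 3 was called with the Gapdh covariate, without TS34 and TS35, or without fat-free mouse TS42 or CHO-free mouse TS31, 1 was called without TS34, TS35, TS37 or TS38, and 6 were called without TS32.

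Effects against different controls were compared as differences of fold changes. Fasted mice and their controls were hybridised on other dates than the remaining mice and normalised apart from them. In every comparison with the fasting effect, diet and cohort therefore cannot be told apart. The fasting effect exceeded the 30%DR effect on 4 carrier probe sets and was lower on none (2.24% of all probe sets, 1.17% higher), with Slc25a25 apart by 3.66 ± 0.35 log2 units (adjusted p = 1.86e-08), Slc25a22 by 1.14 ± 0.20 and Slc25a20 by 1.22 ± 0.21 and 1.07 ± 0.24. Slc25a25 rose in fasted mice and fell in restricted mice, and the intervals of the 2 effects, 2.10 to 2.91 and -1.69 to -0.62, lay on opposite sides of 0. Against the protein-free effect the fasting effect was higher on 4 and lower on none (2.33%, 1.08% higher), Slc25a25 by 2.64 ± 0.32, Slc25a22 by 1.01 ± 0.19, Slc25a10 on its second probe set by 0.95 ± 0.26 and Slc25a20 by 0.81 ± 0.19. Against the CHO-free effect it was higher on 5 and lower on 1 (2.84%, 1.42% in each direction), Slc25a25 by 1.41 ± 0.32, Slc25a20 by 1.18 ± 0.19 and 0.82 ± 0.23, Slc25a22 by 1.16 ± 0.19, Slc25a12 on its brighter probe set by 0.84 ± 0.25 (0.32 ± 0.19 on the other), and Slc25a35 by -1.13 ± 0.20. Without TS32 that last count was 11, 9 higher and 2 lower, the share of all probe sets in that fit not being given. The second Slc25a25 probe set passed in none of these comparisons. It stood at 1.22 ± 0.35 against the 30%DR effect (adjusted p = 0.0576) and 0.71 ± 0.33 against the protein-free effect (adjusted p = 0.344). Against the CHO-free effect it stood at -0.04 ± 0.33 (adjusted p = 0.976). With the Gapdh covariate the first probe set did not pass against the CHO-free effect (adjusted p = 0.0945).

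The second Slc25a20 probe set differed from the protein-free effect by 0.66 ± 0.23 and did not pass (adjusted p = 0.128). For Slc25a34 the fasting effect exceeded the 30%DR effect by 0.61 ± 0.23 (adjusted p = 0.217), the protein-free effect by 0.33 ± 0.22 (adjusted p = 0.602) and the CHO-free effect by 0.01 ± 0.22 (95% interval -0.43 to 0.45), none of which passed. The 30%DR effect was below the CHO-free effect on both probe sets of Slc25a25 (0.620% of all probe sets, 0.368% lower), by -2.26 ± 0.34 and -1.26 ± 0.28, the second of which was lost without mouse TS27, TS55, TS56 or TS73 (-1.21 to -1.13, adjusted p from 0.0550 to 0.128). Between the 30%DR and protein-free effects no carrier was called (0.0222%), and 4 had an unadjusted p under 0.05 in limma (6.15%). In that comparison Slc25a25 stood at -1.02, so that a difference in its response was not detectable with these numbers of mice and cannot be taken as absent.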

How the data were processed

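Kidney RNA of 36 mice was hybridised to HT MG-430 PM arrays. The deposited values are log2 signals that the authors made by RMA in each cohort separately, 9 arrays of the fasting cohort and 27 of the other, after leaving out outlier arrays. No source used here gives the RMA version. Array medians ran from 4.15 to 4.21 and from 3.62 to 3.76, and the number of arrays limits the precision.

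Each cohort was fitted apart with limma 3.58.1 in R 4.3.3, and effects of the fasting cohort were set against those of the other diets in a fit of all 36 arrays with 1 mean per group. P-values were adjusted by Benjamini-Hochberg over 45141 probe sets. The code was tested on simulated data. The members and lists were chosen with earlier results of these data known. Every member gene called against a control was named, values of every array were given for at most 12 genes, and otherwise the brightest probe set or the lowest p of a role was given, and up to 3 called genes per list and comparison. Slc25a53, Slc25a47, Slc25a33, Slc25a16, Slc25a14, Slc25a23, Slc25a26 and the other carriers under 1.5-fold were named after their values were seen. Alternatives were quantile or median normalisation, a filter on dim probe sets, array weights, another variance prior, covariates, joined controls, fits of pairs of groups, other fold change minimums, 1 probe set per gene and leaving out each mouse. Where separate extractions are not stated, p-values measure the spread between these mice. Start windows came from RefSeq.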

Additional observations from a re-analysis of the deposited data

Results flagged for a closer look

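Single mice stood apart within their group in 3 of 70 pairs of a gene and a diet group tested with Dixon's ratio, where chance gives about 1 in 20. The pairs share the same mice. The mice that stood apart were fat-free mouse TS41 in Slc25a25 (7.25 against 6.47 in the nearest mouse), CHO-free mouse TS32 in Slc25a15 (6.10 against 5.68) and fat-free mouse TS38 in Slc25a13 (9.24 against 8.86), all high.

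The other results listed are differences between diets that passed limma's adjusted p over all probe sets and 1.5-fold. Protein-free minus CHO-free, the log2 differences were -1.24 and -0.75 for the probe sets of Slc25a25, -0.89 for Slc25a35, -0.70 for Slc25a45, -0.59 for Slc25a10, -0.59 for Slc25a37 and 0.59 for Slc25a30. Protein-free minus fat-free, Slc25a45 stood at -0.73. CHO-free minus fat-free, Slc25a25 stood at 0.78, Slc25a34 at 0.69 and Slc25a10 at 0.64. The Slc25a10 values of both comparisons came from its brighter probe set alone.

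Between effects against different controls, the 30%DR effect minus the CHO-free effect was -2.26 and -1.26 for Slc25a25. The comparisons with the fasting effect cross the cohorts, so that diet and cohort cannot be told apart in them. The fasting effect minus the CHO-free effect was 1.41 for Slc25a25 (-0.04 on its second probe set, which did not pass), 0.82 and 1.18 for Slc25a20, 1.16 for Slc25a22, 0.84 for Slc25a12 and -1.13 for Slc25a35. Minus the protein-free effect it was 2.64 for Slc25a25, 1.01 for Slc25a22, 0.95 for Slc25a10 and 0.81 for Slc25a20. Minus the 30%DR effect it was 3.66 for Slc25a25, 1.22 and 1.07 for Slc25a20 and 1.14 for Slc25a22. The Slc25a12 difference was lost without any 1 of 15 mice, all 9 of the fasting cohort and TS26, TS27, TS28, TS30, TS34 and TS35 (0.67 to 0.88), the Slc25a10 difference from the protein-free effect without any 1 of 11, K340, K343, K344, K348, K349, K350, TS26, TS28, TS49, TS51 and TS52 (0.80 to 0.97) and the smaller Slc25a20 difference from the CHO-free effect without any 1 of 9, K339, K340, K344, K346, K348, TS26, TS28, TS35 and TS36 (0.66 to 0.82).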

How the results depend on the processing

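Gene values were recomputed under the alternatives for the called probe sets only. Of 988 such values, 815 kept their direction and side of the threshold and 172 no longer passed. The 1 that turned was Slc25a13 on the CHO-free diet, at 0.0073 with the Gapdh covariate. Dropping the fold change minimum cannot lose a call, so all values of that setting are among those kept. Apart from the counts without a fold change minimum, shares of all probe sets are not given for these settings or for leaving out a mouse. Counts of called carrier probe sets moved as follows, and where no value is named the cause was not tested. Without a fold change minimum they were 29 after fasting, 3 on 30%DR and 4 on the protein-free diet. With the Gapdh covariate they were 2 for CHO-free against Control, 3 for protein-free against CHO-free, 0 for CHO-free against fat-free, 1 for the 30%DR against the CHO-free effect and 7 for the fasting against the protein-free effect, which was 8 with array weights. The adipocyte covariate gave 4 for protein-free against CHO-free. With limma's treat at 1.2-fold there were 0 on 30%DR, 0 on the protein-free diet, 1 on the CHO-free diet, 2 for protein-free against CHO-free, and 0 for protein-free and 0 for CHO-free against fat-free. One probe set per gene gave 5 on the CHO-free diet. Fits of the 2 groups alone gave 5 on the CHO-free diet, 4 for protein-free against CHO-free and 0 for CHO-free against fat-free. Joined controls gave 1 on the protein-free diet and 2 on 30%DR. Without TS34 and TS35 there were 4 on the CHO-free diet, 3 for protein-free against CHO-free and 0 for CHO-free against fat-free.

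Leaving out each mouse in turn gave 6 to 11 after fasting, 0 to 1 on 30%DR, 1 to 3 on the protein-free diet, 4 to 10 on the CHO-free diet, and 0 to 0 on the fat-free diet and for Control against SDS. It gave 3 to 10 for protein-free against CHO-free, 0 to 2 for protein-free and 0 to 6 for CHO-free against fat-free, 1 to 2 for the 30%DR against the CHO-free effect and 0 to 0 against the protein-free effect, and 4 to 11, 3 to 5 and 4 to 5 for the fasting effect against the CHO-free, protein-free and 30%DR effects. No paired analysis was possible because each mouse has its own number and no number is shared between groups. Groups of 3 to 5 mice limit what could be detected, and dim probe sets have little signal over background.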
